A study of Mus musculus with 18 samples.

Results

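Open regions of chromatin that lie in exons of protein-coding genes, away from gene starts, are described here from fast-ATAC-Seq of liver macrophages (LMs, labeled Kupffer cells or KC by the submitters). A region was taken when its midpoint was in an exon of a protein-coding gene on chromosomes 1 to 19 and more than 1 kb from every annotated transcription start. There were 2293 such exonic regions among the 69499 deposited open regions, which is 3.35% of the 68533 regions on these chromosomes (95% Wilson interval 3.21% to 3.48%) and 4.77% of the 48088 that were more than 1 kb from every start. The LMs came from male C57BL/6J mice fed a high-fat, high-sucrose diet (HFHSD) for 4 weeks, with 50000 cells in each transposase reaction. Control mice, *Reverb*-hDKO mice, and *Reverb/Scap*-hTKO mice were each sampled at ZT10 and at ZT22 with 3 replicates, which gives 18 libraries. All of them were floxed mice that received an adeno-associated virus with the hepatocyte-specific TBG promoter, driving GFP in controls and CRE in the knockouts, so the genes were deleted in hepatocytes and not in the LMs. *Reverb*-hDKO removes the clock repressors REV-ERBα and REV-ERBβ, and *Reverb/Scap*-hTKO removes in addition SCAP, the escort protein that SREBP factors need for activation. The titles of the libraries name the third genotype a TKO, while the design text names it a DKO.

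The authors merged the aligned reads of biological replicates before calling peaks, and the list analysed here gives only the position of each region. It holds no count and no sample, so depth is unknown, no spread between replicates can be given, and genotypes and times could not be compared. All intervals below are 95% intervals that cover counting error only, and neighboring regions are not independent of each other.

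Exons carry the coding sequence and the untranslated sequence of mRNA, and they are short islands in genes that consist mostly of introns. Open chromatin, where nucleosomes leave DNA accessible to the Tn5 transposase, is densest at gene starts and at enhancers. Coding exons are known to be rich in G and C relative to introns, and some of them hold binding sites of transcription factors or act as enhancers. The first exon of a gene begins at its start, the last exon usually carries the stop codon and the 3′ untranslated sequence, and inner exons are flanked by splice sites on both sides.

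Short stretches of 30 bases from coding regions show the kinds of sequence described below. They are from the NCBIM37 assembly (mm9), plus strand, 5′ to 3′, and each is part of an open region that lies wholly in coding sequence. *Rest*, which encodes a repressor of neuronal genes, is shown because 6 exonic regions lie in it. *Keap1*, which encodes the sensor protein that holds the antioxidant factor NRF2 in check, had the widest region in a first coding exon. *Arid2*, which encodes a subunit of a chromatin remodeling complex, is shown for its AP-1 pattern, and *C1qtnf4* and *Ano8* had the highest shares of CpG in a coding region. Capitals mark CG dinucleotides in the first *Rest* stretch and in *Keap1*, *C1qtnf4*, and *Ano8*. In the other stretches they mark a GC box (written on the opposite strand), a CTCF pattern, and an AP-1 pattern.
Rest coding exon 2, chr5:77697624-77697653: ccaacCGgtatgaccactacatggcacacc
Rest coding exon 4, GC box, chr5:77710700-77710729: ctaagtcagagcCCGCCCagatggaggttt
Rest coding exon 4, CTCF, chr5:77711184-77711213: cctgctgagtgAGATGGCGCggcaggagca
Keap1 coding exon 1, chr9:21041939-21041968: aggCGaagctCGttcatgaCGccaaaagcc
Arid2 coding exon 15, AP-1, chr15:96201986-96202015: caactgcgactgTGAGTCAgggaaacgctg
C1qtnf4 coding exon 2, chr2:90730009-90730038: CGCGgaCGcCGaCGcCGaCGCGcctgCGCG
Ano8 coding exon 17, chr8:74000306-74000335: tcCGgcCGCGgttCGggctCGgCGgcCGCG

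Coding sequence held the largest number of these exonic regions. The midpoint was in coding sequence for 1168 regions (50.9%, Wilson interval 48.9% to 53.0%), in 3′ untranslated sequence for 906 (39.5%, 37.5% to 41.5%), and in 5′ untranslated sequence for 35 (1.53%, 1.10% to 2.12%). The other 184 (8.02%, 6.98% to 9.21%) were in exons of transcripts with no annotated coding sequence. Where transcripts disagreed, coding sequence took precedence. When untranslated sequence took precedence instead, the coding share was 45.9%, and among regions of at least 200 bp it was 45.4%. The midpoint was in exons of 2 or more genes for 27 regions.

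Set against all known bases of their class more than 1 kb from every start, exons had more open regions than introns. For coding exons this order turned around when bases of like GC content were compared. Bases where reads cannot be placed uniquely were not left out, and their part in the densities and ratios was not tested. Coding sequence more than 1 kb from every start spans 25.4 Mb and had 46.1 regions per Mb (exact Poisson interval 43.5 to 48.8). The density was 65.9 per Mb in 5′ untranslated sequence (45.9 to 91.7), 38.3 in 3′ untranslated sequence (35.9 to 40.9), 27.1 in introns (26.7 to 27.4), and 16.3 between genes (16.1 to 16.5). Coding exons thus had 1.70 times the intron density (exact interval of the ratio 1.60 to 1.80). The ratio was 1.41 for 3′ untranslated exons (1.32 to 1.51), and 2.43 for 5′ untranslated exons (1.70 to 3.39). When the intron density was taken within bins of GC content of the surrounding 151 bp, the coding ratio was 0.748 (0.705 to 0.792), below 1. The coding density was also 1.20 times that of 3′ untranslated exons (1.10 to 1.31), and 5′ untranslated exons did not differ from coding exons beyond counting error (ratio 1.43, 0.992 to 2.00).

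**Figure D1:**
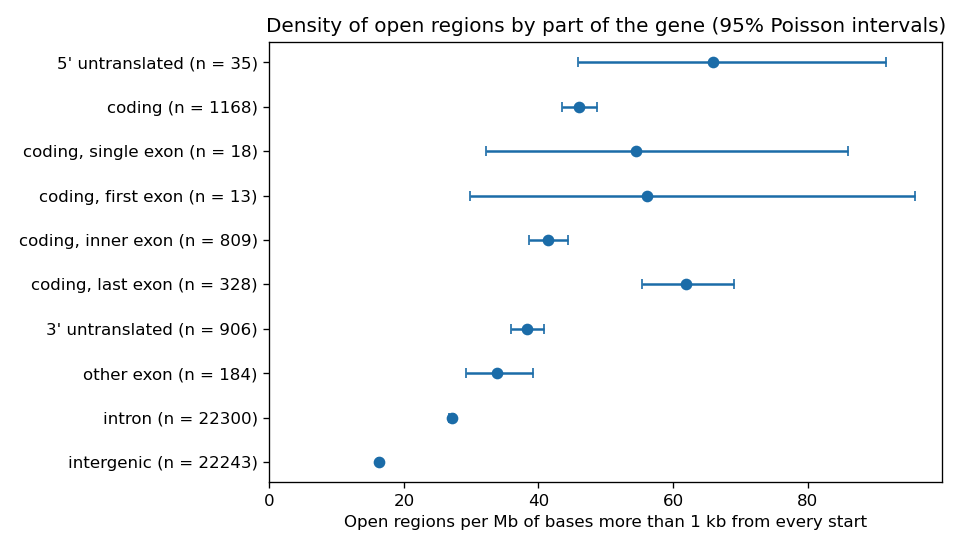
Points give the number of open regions per Mb of bases more than 1 kb from every start, for each part of the gene and for coding sequence split by exon position, with exact Poisson 95% intervals and the number of regions beside each name. Exon classes sit to the right of introns (27.1 per Mb) and of intergenic sequence (16.3 per Mb), last coding exons sit to the right of inner ones, and the intervals of the small classes are wide; GC content is not taken into account.

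GC content moved with the density of open regions in coding exons, 3′ untranslated exons, and introns, the classes for which it was binned. In introns the density rose from 3.11 per Mb where the surrounding 151 bp had less than 40% GC to 147 per Mb at 60% or more, and in coding exons from 2.66 to 130 per Mb. Coding bases were far more often in the upper bins. Of coding bases, 12.1% were in windows with 60% GC or more, compared with 1.04% of intron bases. Within the 6 GC bins, the coding density was 0.855, 0.723, 0.708, 0.655, 0.713, and 0.881 times the intron density, from low to high GC. All 6 ratios were below 1, and only in the lowest bin did the interval include 1 (0.390 to 1.63). At the intron density of their GC bins, coding bases would have held 1562 midpoints, and they held 1168. With bins of both distance and GC content, the coding ratio was 0.672 (0.634 to 0.711). These 2 GC comparisons were added after the data had been seen, and their intervals take the intron density as fixed.

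In 3′ untranslated exons, the ratio within GC bins was 1.11 (1.04 to 1.19). It was highest at 45% to 50% GC, where the density was 46.3 per Mb compared with 34.2 in introns (ratio 1.35, 1.18 to 1.55). With bins of both distance and GC content the ratio was 1.01 (0.943 to 1.08). For the 35 regions in 5′ untranslated exons, these ratios were 1.41 (0.985 to 1.97) and 1.16 (0.807 to 1.61), so a difference from introns at equal GC content was not detectable with this number of regions. The reason for the relation of density to GC content was not tested.

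**Figure D2:**
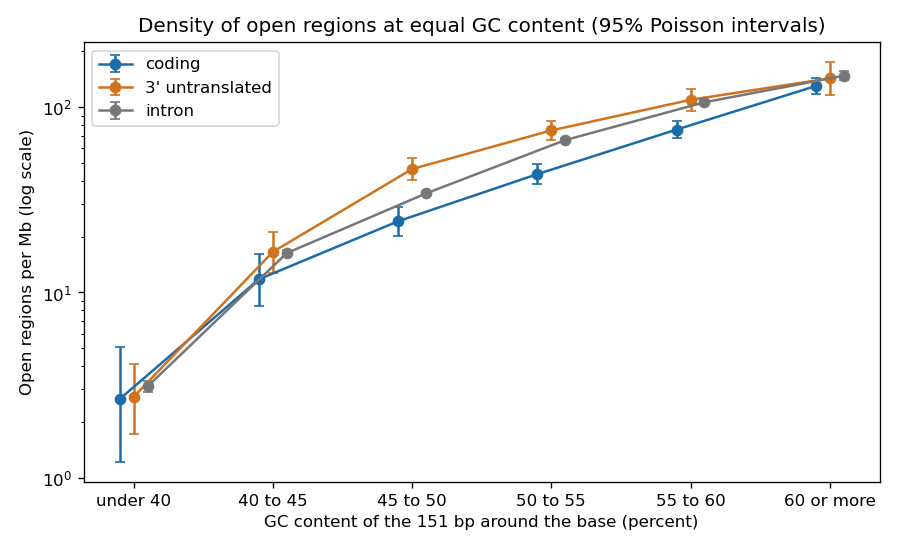
Open regions per Mb (log scale) are plotted against the GC content of the 151 bp around each base for coding sequence, 3′ untranslated sequence, and introns, with exact Poisson 95% intervals. All lines rise with GC content, and the coding points are below the intron points in all 6 bins, at 0.655 times the intron density for 50% to 55% GC.

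Coding exons, 3′ untranslated exons, and introns each had fewer open regions beyond 50 kb from a start than at 1 to 2 kb, but in coding exons the fall was not steady. Between 1 and 2 kb from a start, coding exons had 66.3 regions per Mb and introns 48.2. Beyond 50 kb, the densities were 30.5 and 13.1 per Mb. In between, the coding density was 43.8 per Mb at 2 to 5 kb and 54.2 at 5 to 10 kb, where introns had 35.5 and 34.5. The coding ratio to introns was 1.37, 1.23, 1.57, 1.35, 1.44, and 2.33 in the 6 distance bins, and each interval was above 1. With the intron density taken within distance bins alone, the ratio was 1.41 for coding exons (1.33 to 1.50) and 1.20 for 3′ untranslated exons (1.12 to 1.28). In 3′ untranslated exons the ratio ran from 1.06 (20 to 50 kb) to 1.51 (over 50 kb), and its interval included 1 at 1 to 2 kb (0.976 to 1.43) and at 20 to 50 kb (0.861 to 1.30). Of the 35 regions in 5′ untranslated exons, 17 were between 1 and 2 kb from a start, where the density was 104 per Mb. In the farther bins, with 1 to 7 regions each, it ran between 22.3 and 77.9 per Mb in no steady order. With a limit of 500 bp in place of 1 kb, the ratio of 5′ untranslated exons to introns was 4.14.

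**Figure D3:**
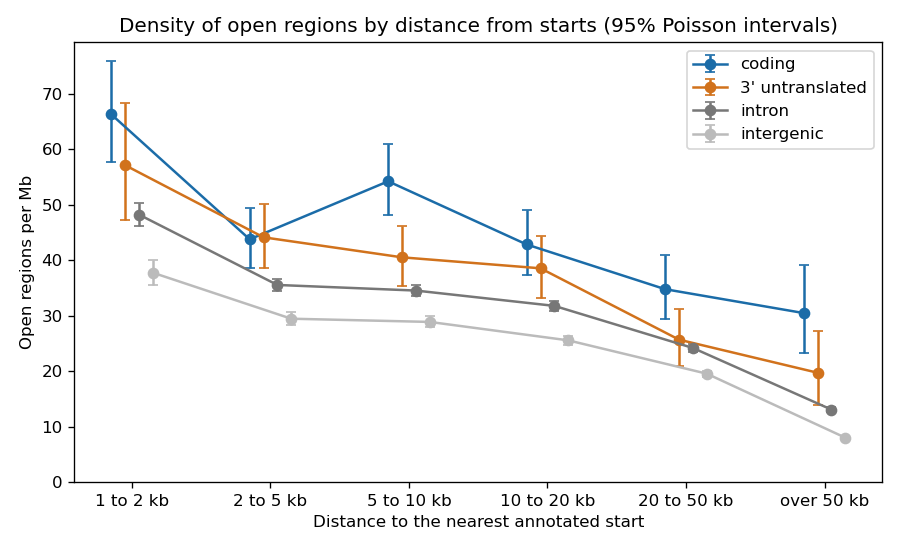
Open regions per Mb are plotted in 6 bins of distance to the nearest annotated start for coding sequence, 3′ untranslated sequence, introns, and intergenic sequence, with exact Poisson 95% intervals. Every line is lower beyond 50 kb than at 1 to 2 kb, and the coding line is above the intron line in each bin, with no account taken of GC content.

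The limit of 1 kb did not coincide with a step in the exonic regions. Exonic midpoints numbered 50 in the last 100 bp inside the limit and 50 in the first 100 bp beyond it, of which 24 and 25 were in coding sequence. The coding region nearest to the limit on the inside of the rule was in *Hspb1*, which encodes a small heat shock protein. It lies at chr5:136364860-136365010, with its midpoint 1006 bp from a start. The nearest one left out was in *Slc5a3*, which encodes an inositol transporter, at 996 bp.

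Most coding regions were in inner exons, but last exons held more than their share of bases. There were 809 coding regions in inner exons (69.3%, 66.6% to 71.8%), 328 in last exons (28.1%, 25.6% to 30.7%), 18 in genes with a single exon, and 13 in first exons. Inner exons made up 76.9% of the coding bases and last exons 20.9%. The density was 41.5 regions per Mb in inner exons (38.7 to 44.4) and 62.0 in last exons (55.4 to 69.1), a ratio of 1.49 (1.31 to 1.70). First exons (56.1 per Mb) and single exons (54.4 per Mb) did not differ from inner exons beyond counting error, with ratios of 1.35 (0.718 to 2.33) and 1.31 (0.774 to 2.09). Open regions in last exons also had a higher GC content, 59.8 ± 7.58% (SD over regions), compared with 56.0 ± 6.46% in inner exons. The part of GC content in the ratio of last to inner exons was not tested.

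Exon length also moved with exon position. The median exon was 172 bp for regions in inner coding exons and 1659 bp for those in last coding exons. Among exons of more than 150 and up to 300 bp, last exons had 0.985 times the inner density (0.468 to 1.84), with 10 regions in last exons. Above that and up to 1000 bp the ratio was 1.65 (1.23 to 2.20), and over 1000 bp it was 1.30 (0.998 to 1.72). In last exons of up to 150 bp there was no region, which in 0.0754 Mb allows up to 48.9 per Mb. Within inner exons the density was 36.3 per Mb in exons of up to 150 bp and 45.2, 46.3, and 45.8 per Mb in the longer length bins.

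Most regions in inner exons reached into an intron. Of the 809, 619 (76.5%) crossed an exon edge. The 5′ edge alone was crossed by 207 (25.6%), the 3′ edge alone by 229 (28.3%), and both edges by 183 (22.6%). The regions that crossed both edges had a median exon of 100 bp, and a mean of 55.0% of their bases were coding. The 190 regions that stayed within their exon (23.5%, 20.7% to 26.5%) had a median exon of 746 bp. By the distance of the midpoint from the nearest exon edge, the density was 38.0 per Mb within 25 bp, 39.5 from there to 50 bp, 43.7 from there to 100 bp, and 48.5 beyond 100 bp. The intervals of the nearest bin (33.4 to 43.1) and the farthest bin (41.1 to 56.7) overlap in part. This does not settle whether the bins differ, and no interval of their ratio was computed.

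Most regions in 3′ untranslated sequence were in last exons, which hold most of its bases. Of 906 regions in 3′ untranslated sequence, 871 (96.1%) were in a last exon, 22 in a single exon, 12 in an inner exon, and 1 in a first exon. The last exons made up 96.4% of the 3′ untranslated bases. Of 35 regions in 5′ untranslated sequence, 20 were in inner exons, 7 in first exons, 5 in last exons, and 3 in single exons. First exons held 20% of these regions on 9.08% of the 5′ untranslated bases (145 per Mb, 58.4 to 299), and inner exons 57.1% on 74.1% (50.9 per Mb, 31.1 to 78.6). The median region in 3′ untranslated sequence was 1068 bp from the gene's end and 96.2% of the way along the gene. The median coding region was 74.7% along the gene, 6500 bp from the nearest start, and 5441 bp from the gene's end.

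Coding regions were slightly narrower than intron regions. The mean width was 174.5 ± 43.0 bp (SD over regions) for coding exons and 179.3 ± 44.5 bp for introns, a difference of -4.79 bp (-7.33 to -2.25). Both medians were 151 bp, which is the commonest width and the width of 740 coding regions (63.4%) and of 55.4% of intron regions. Regions over 200 bp were 19.8% of the coding ones and 24.5% of those in introns. In 3′ untranslated exons the mean was 178.7 ± 43.1 bp, a difference from introns of -0.626 bp (-3.49 to 2.24). Another open region was within 1 kb of 26.7% of coding regions (24.3% to 29.3%), 25.3% of 3′ untranslated regions, and 22.8% of intron regions (22.2% to 23.3%).

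Open regions were richer in GC than all bases of their class in coding exons, 3′ untranslated exons, and introns. Coding regions had a mean GC content of 57.2 ± 7.07%, compared with 51.1% of all coding bases in range, and 3′ untranslated regions had 52.5 ± 6.12%, compared with 43.6%. Intron regions had 50.5 ± 6.01%, compared with 42.5% of intron bases. The step from the class to its open regions was thus 6.18 points in coding exons, 8.88 in 3′ untranslated exons, and 8.08 in introns. Regions were taken whole, while the class values cover only bases of the class. A mean of 78.9% of the bases of coding regions were coding, and 98.7% of those of 3′ untranslated regions were in exons. The part of the other bases in these steps and in the CpG ratios below was not tested. Coding regions exceeded intron regions by 6.69 points (6.27 to 7.10). CpG dinucleotides numbered 3.94 per 100 bp in coding regions, which is 1.50 times the rate of all coding bases. In 3′ untranslated regions the rate was 1.97 per 100 bp (1.77 times that class), and in intron regions 1.57 (1.85 times).

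A subset of the coding regions was rich in CpG, the dinucleotide that clusters in islands at many gene starts. A region was called CpG-rich when its GC content exceeded 50% and its ratio of observed to expected CpG exceeded 0.6. This held for 243 of 1168 coding regions (20.8%, 18.6% to 23.2%), for 10 of 35 in 5′ untranslated sequence, and for 5.08% of 3′ untranslated regions. It held for 2.28% of intron regions and 5.13% of intergenic regions, while 57.2% of regions within 1 kb of a start were CpG-rich. The share over all open regions was not counted, so the coding share cannot be set against it. By exon position, the coding share was 12 of 18 in single exons, 6 of 13 in first exons, 32.9% in last exons (28.1% to 38.2%), and 14.5% in inner exons (12.2% to 17.1%). CpG-rich coding regions were nearer to a start than the other coding regions, with medians of 3249 and 7464 bp, and 33.7% of them (28.1% to 39.9%) were within 2 kb compared with 14.1% (12.0% to 16.4%). Their mean width was 185.8 ± 53.2 bp, compared with 171.5 ± 39.4 bp. Another open region was within 1 kb of 40.3% of them and of 23.1% of the other coding regions. The densest in CpG were in *C1qtnf4*, which encodes a secreted protein of the C1q and TNF family, and *Ano8*, which encodes a membrane protein of the anoctamin family. The region of *C1qtnf4* (chr2:90729947-90730097, last exon) had 34 CpG and 81.5% GC in 151 bp, and that of *Ano8* (chr8:74000298-74000448, last exon) had 29 CpG and 82.1% GC. In the stretches printed above, 10 CG dinucleotides lie in 30 bases of *C1qtnf4* and 8 in 30 bases of *Ano8*.

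Patterns of transcription factors were searched for as exact letters on both strands. They were AP-1 (TGACTCA or TGAGTCA), bound by FOS and JUN factors, PU.1 (GAGGAAGT), a lineage factor of macrophages, and the CTCF core (AGGGGGCGC, AGAGGGCGC, AGGTGGCGC, or AGATGGCGC), the site of a factor that organizes chromatin loops. The others were the E-box CACGTG, bound by clock activators and by SREBP, the REV-ERB/ROR hexamer AGGTCA, the GC box GGGCGG of SP factors, the SREBP pattern TCACNCCAC, the CEBP pattern TTGCNNAA, and the HNF4A pattern CAAAGTCCA, for a factor of hepatocytes. N stands for any base, and no pattern contains another. Among all 68533 regions on chromosomes 1 to 19, the shares with a match were 6.58% for AP-1, 3.83% for PU.1, 2.77% for CTCF, 6.07% for the E-box, 18.5% for the REV-ERB/ROR hexamer, 18% for the GC box, 0.909% for SREBP, 10.4% for CEBP, and 0.962% for HNF4A. A match is a string of letters and not a bound site. Matches were counted in whole regions, so those of coding regions include stretches outside coding sequence. The effect of these stretches on the ratios to the own class was not tested.

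AP-1 and CEBP patterns were rarer in coding regions than in intron regions. AP-1 was in 37 coding regions (3.17%, 2.31% to 4.34%) and in 8.05% of intron regions, a difference of -4.89 points (-5.82 to -3.67). It was in 56 regions of 3′ untranslated exons (6.18%, difference from introns -1.87 points, -3.31 to -0.0777). CEBP was in 8.48% of coding regions and 11.7% of intron regions (-3.26 points, -4.79 to -1.47). Coding sequence as a whole also held fewer AP-1 patterns, 0.117 per kb compared with 0.175 in introns. Relative to all bases of the same class, AP-1 was 1.55 times as frequent per kb in coding regions (1.09 to 2.14), 2.14 times in 3′ untranslated regions (1.62 to 2.78), and 2.72 times in intron regions (2.60 to 2.85). The widest coding regions with an AP-1 pattern were in *Arid2* (chr15:96201864-96202156, exon 15, printed above) and in *Pparg*, which encodes a lipid-sensing nuclear receptor (chr6:115413087-115413357, exon 5).

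CTCF and GC box patterns were more frequent in coding regions than in intron regions. CTCF was in 53 coding regions (4.54%, 3.49% to 5.89%) and in 1.64% of intron regions, a difference of 2.90 points (1.83 to 4.26). In 3′ untranslated regions it was in 32 (3.53%), a difference of 1.90 points (0.861 to 3.32). Among intergenic regions CTCF was in 2.87%, also above introns (1.24 points, 0.961 to 1.51). Coding sequence as a whole also held it more often, 0.0272 per kb compared with 0.0108 in introns. Relative to its own class, CTCF was 10.1 times as frequent in coding regions (7.64 to 13.1), 13.4 times in 3′ untranslated regions (9.22 to 18.8), and 8.61 times in intron regions (7.75 to 9.53). These intervals overlap, which does not settle whether the classes differ, and they were not compared with each other. The widest coding regions with it were in *Nsmce1*, which encodes a subunit of a DNA repair complex (chr7:132615570-132615906, exon 3), and *Hey1*, which encodes a repressor induced by Notch (chr3:8664599-8664934, last exon). The GC box was in 10.3% of coding regions and 5.78% of intron regions (4.50 points, 2.85 to 6.40), but relative to its own class it was 2.85 times as frequent in coding regions (2.43 to 3.32) and 3.73 times in intron regions (3.55 to 3.92). It was in 7.48% of intergenic regions (1.70 points above introns, 1.24 to 2.16) and in 7.28% of 3′ untranslated regions (1.51 points, -0.0411 to 3.41).

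The other patterns differed less. PU.1 was in 4.02% of coding and 4.64% of intron regions (-0.613 points, -1.64 to 0.701), and relative to its own class it was 2.83 times as frequent in coding regions (2.10 to 3.75) and 4.44 times in intron regions (4.18 to 4.72). The E-box was in 7.02% and 5.58% (1.44 points, 0.0779 to 3.08). The REV-ERB/ROR hexamer was in 20.2% and 21.7% (-1.53 points, -3.80 to 0.928). SREBP was in 10 coding regions (0.856%) and 0.946% of intron regions, and HNF4A in 11 (0.942%) and 1.26%, and both intervals of the difference include 0. Relative to its own class, HNF4A was 2.45 times as frequent in coding regions (1.22 to 4.39) and 5.30 times in intron regions (4.70 to 5.95). Because 9 patterns were compared, an interval that only just excludes 0, such as that of the E-box, carries little weight.

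**Figure D4:**
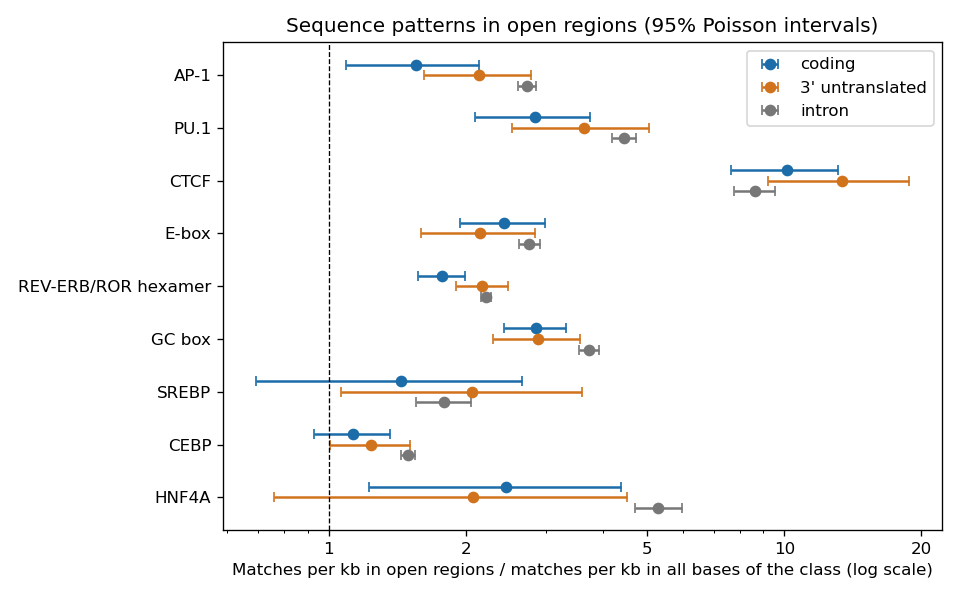
For each of 9 sequence patterns, points give the number of matches per kb in open regions divided by that in all bases of the same class (log scale, 95% Poisson intervals), and the dashed line marks 1. Open regions are taken whole, including their bases outside the class. Coding points are to the left of intron points for AP-1, PU.1, the REV-ERB/ROR hexamer, the GC box, CEBP, and HNF4A with intervals that do not overlap, while CTCF is highest in each class, at 10.1 in coding and 8.61 in intron regions.

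Exonic regions were spread over many genes. Of 19215 protein-coding genes with exon bases in range, 1934 (10.1%) had at least 1 exonic region, and 1644 of them had exactly 1. There were 242 genes with 2, and 48 with 3 or more. The largest numbers were in *Fam59a*, *Rest*, and *Itsn1*. *Lrp1* and *Dnmt3a* are described from the genes with 4, a number that *Kdr* and others also had, because their regions had the largest summed width among these.

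In *Rest* (ENSMUSG00000029249.8, chr5:77694516-77715457, plus strand), all 8 open regions were either near a start or in an exon. It had 2 regions within 1 kb of a start and 6 exonic regions that each lay wholly in exons. None was in its introns more than 1 kb from every start. In the transcript drawn below, the 2 regions near a start lay between exons 1 and 2. Of the 6, 4 were coding and 2 were in the 3′ untranslated sequence of exon 4. The first, in coding exon 2, was 264 bp wide and had 16 CpG. The 3 in the coding part of exon 4 were 151, 251, and 489 bp wide, and the widest of these (chr5:77711311-77711799) was also the widest region in a last coding exon. The 2 in untranslated sequence were 298 and 151 bp wide.

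In *Fam59a* (ENSMUSG00000042680.7, minus strand), which encodes an adaptor of growth factor receptor signaling, 8 of 10 open regions were exonic, and 2 were in an intron. The gene spans chr18:21285702-21458639, but all 10 were in its distal part, and none was within 1 kb of a start. Exon 4 held 2 regions, exon 5 held 1, and the last exon held 5, of which 2 were in untranslated sequence. Of the 8, 7 lay wholly in exons, and the midpoints were 51039 to 71147 bp from the nearest start. The exons of *Fam59a* sum to 4.43 kb.

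**Figure D5:**
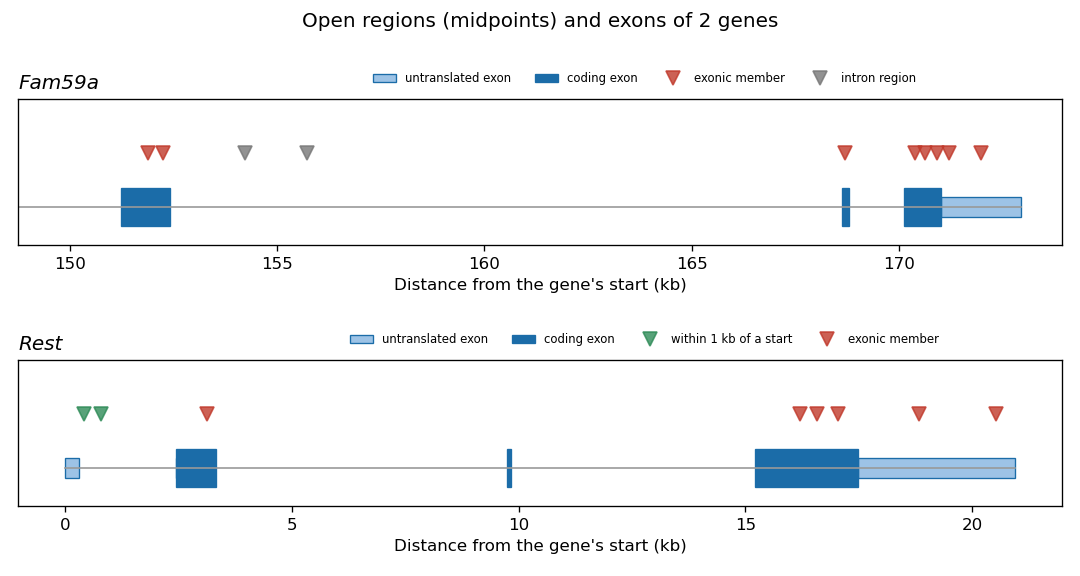
Exons (tall boxes coding, low boxes untranslated) of 1 transcript each of *Fam59a* and *Rest* are drawn to scale along the distance from the gene's start in kb, with triangles at the midpoints of open regions; for *Fam59a* only the distal part with open regions is drawn. The 8 exonic regions of *Fam59a* and the 6 of *Rest* sit over exons, mostly over the last exon.

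Open regions in introns, more than 1 kb from every start, were counted for the other 3 of these genes too. *Itsn1*, which encodes a scaffold of endocytosis, had 6 exonic and 20 intron regions. *Lrp1*, which encodes an endocytic receptor of lipoproteins, had 4 exonic and 6 intron regions. *Dnmt3a*, which encodes a DNA methyltransferase, had 4 exonic and 13 intron regions, and 3 of its exonic regions were in the last exon's 3′ untranslated sequence. Among the other exon positions, the widest coding regions were in *Csf2ra*, which encodes a subunit of the GM-CSF receptor (510 bp, chr19:61302995-61303504, exon 2, 33 CpG), *Mab21l2* (307 bp, single exon, 23 CpG), and *Keap1* (183 bp, exon 1). The midpoint in *Csf2ra* was 1072 bp from a start, and 36.7% of its bases were coding. In 3′ untranslated sequence the widest were in *D930048N14Rik* (386 bp, last exon), *Rtkn2* (364 bp, inner exon), and *5930403N24Rik* (294 bp, single exon). In 5′ untranslated sequence of inner exons the widest was in *Kcnk13*, which encodes a potassium channel (294 bp, 30 CpG). In exons without coding sequence the widest were in *Exosc8*, which encodes a subunit of the RNA exosome (353 bp), *Fkbp8* (341 bp), and *Ugdh* (304 bp).

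Genes of the cell types that a macrophage preparation could hold were counted next, against the share of 10.1% over all genes. Of 21 Kupffer cell and macrophage genes in range, 6 had an exonic region (28.6%, 13.8% to 50.0%). By their midpoints, those in *Cd163*, *Irf8*, and *Msr1* were coding, and those in *Ccr2*, *Csf1r*, and *Fcgr1* were in 3′ untranslated sequence. The region of *Csf1r* was in the last exon of a transcript with 11 exons, only 57.2% of the way along the gene. In that of *Fcgr1*, 45.0% of the bases were coding. The region of *Cd163*, which encodes a scavenger receptor for hemoglobin, had an AP-1 pattern. Of 26 hepatocyte gene entries, 5 had one (19.2%, 8.51% to 37.9%), and all 6 of their regions were coding. *C3*, which encodes the complement protein, had 2, and *Ahsg*, *Apoa1*, *Cyp2e1*, and *Mttp* had 1 each. Of 20 endothelial genes, *Kdr*, which encodes a VEGF receptor, had 4 regions and *Stab2* had 1. None of 19 stellate cell genes had one (upper limit 16.8%), and of 19 neuron and muscle genes *Ttn* had 1. The intervals of these shares include 10.1% except that of the Kupffer cell and macrophage genes, which is on 21 genes that were chosen with earlier results known. Per Mb of exon bases in range the order of these lists was the same. Kupffer cell and macrophage genes had 109 regions per Mb (40.1 to 238), an interval that includes the 41.7 per Mb of all exons, and so did the intervals of hepatocyte, endothelial, and stellate cell genes. Neuron and muscle genes had 5.09 per Mb (0.129 to 28.4), which is below it.

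Open regions at the starts of the same genes were also counted. An open region was within 1 kb of a start in 16 of 22 Kupffer cell and macrophage genes, and those without one were *Ccr2*, *Cd163*, *Csf1r*, *Fcgr1*, *Lyz2*, and *Marco*. The number was 24 of 26 for hepatocyte genes, 18 of 20 for endothelial genes, 8 of 19 for stellate cell genes, and 3 of 19 for neuron and muscle genes. Starts of hepatocyte and endothelial genes were thus open in the list along with those of macrophages, and their part in the exonic regions was not tested. The same share over all protein-coding genes was not counted, so these numbers cannot show which cell types the preparation held.

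The genes deleted in hepatocytes act in the clock and in lipid synthesis, so both pathways were counted. Of 20 core clock genes, *Bhlhe41*, which encodes a repressor of clock activators, had 2 exonic regions and *Per1*, which encodes a period protein, had 1, all with the midpoint in 3′ untranslated sequence. That is 10% of the list (2.79% to 30.1%). The region of *Bhlhe41* at chr6:145812235-145812385 had 13 CpG and an E-box. It was in a last exon of 363 bp, 24.2% of the way along the gene and 1512 bp from a start, and 47.7% of its bases were coding. In the region of *Per1*, 19.9% of the bases were coding. Of 23 genes of the SREBP pathway, 5 had 1 region each (21.7%, 9.66% to 41.9%). Among them were *Acacb* and *Scd2*, which encode enzymes of fatty acid synthesis and desaturation and had coding regions, and *Srebf1*, which encodes the SREBP1 factor itself and had a region in 3′ untranslated sequence. The share of 10.1% over all genes is within the intervals of both pathways. None of these 3 regions had the SREBP pattern, and that of *Scd2* (chr19:44369427-44369592, exon 2) held a CTCF pattern.

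Large gene families with distinctive exons were counted as well. Olfactory receptor genes, which encode receptors of odorants, had an exonic region in 2 of 414 genes (0.483%, 0.133% to 1.74%). They were *Olfr1357* and *Olfr2*, and this share is below the 10.1% of all genes. These genes have only 0.117 Mb of exon bases in range, however, and their 17.1 regions per Mb (2.07 to 61.8) did not differ from the 41.7 per Mb of all exons beyond counting error. Zinc finger *Zfp* genes, whose last exons often encode long arrays of DNA-binding fingers, had one in 27 of 356 (7.58%, 5.26% to 10.8%), and 22 of their 29 regions were coding. Their share includes 10.1% in its interval, but their 24.3 regions per Mb (16.3 to 34.96) are below the density of all exons. *Zfp219* had 2 in inner exon 3, and *Zfp385c* had 2 in 3′ untranslated sequence. Collagen genes had one in 8 of 41 (19.5%, 10.2% to 34.0%), with 11 regions in 0.254 Mb of exons, or 43.3 per Mb (21.6 to 77.4). *Col12a1* had 3 of these and *Col17a1* had 2. Solute carrier genes had one in 41 of 343 (12.0%, 8.93% to 15.8%), with 3 regions each in *Slc39a14*, which encodes a zinc transporter, *Slc43a2*, and *Slc45a3*. Protocadherin genes had one in 3 of 34 (*Pcdh1*, *Pcdh12*, and *Pcdh17*), and Hox genes in 2 of 39 (*Hoxb4* and *Hoxd1*). GC content was not taken into account for these lists, nor was how uniquely reads could be placed in families of similar genes.

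Exonic regions were found on all 19 chromosomes, from 31.1 per Mb of exon bases on chromosome 18 to 54.6 on chromosome 11. Their share of the open regions of a chromosome ran from 2.22% on chromosome 13 to 4.66% on chromosome 11.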

How the data were processed

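LMs of 18 libraries were profiled by fast-ATAC-Seq. The authors trimmed adapters, aligned reads to mm9 with Bowtie in the Kundaje laboratory's ATAC-Seq pipeline, merged biological replicates, and called peaks. The deposited list holds positions only (chromosome, start counted from 0, and end), which are given here from 1. Which peak caller and threshold that pipeline was run with is not given in the sources used here, depth is unknown, and HOMER, named in the submitters' processing notes, left no column.

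Midpoints were set against GENCODE vM1 exons on NCBIM37 in the order coding, 5′ untranslated, 3′ untranslated, other. The 966 regions outside chromosomes 1 to 19 and the 1252 in genes of other types were left out. Position is that in the transcript with the longest coding sequence. Densities divide by bases more than 1000 bp from every transcript start. Only unknown bases (N) were left out of these, with no account taken of where reads can be placed uniquely. Intervals are Wilson, Newcombe, exact Poisson, exact conditional binomial, or from the SE for means. No test between samples was possible.

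Members and gene lists were chosen with earlier results of these data known. Named genes were the 5 with most members (ties by summed width), the widest member of each exon class and position with at least 10, up to 4 genes per list with most members, the widest coding ones with CTCF or AP-1 patterns, the richest in CpG, and those nearest to 1 kb. *Irf8*, *Msr1*, *Mttp*, and *Srebf1* were named beyond this rule after their values were seen, and some genes that it names are not reported here. Alternatives are given in the closing section. The steps were tested on simulated data. Scripts ran under Python 3.11.15 with SciPy 1.17.1 and NumPy 2.4.6, and plots were drawn with matplotlib 3.10.9.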

Additional observations from a re-analysis of the deposited data

How the results depend on the processing

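Of 50 alternatives, 38 were classed as the same as the main result, though not always in size. A count was so classed when it stayed within a set factor of the main count, and a share when it lay within the main interval. A ratio or difference was so classed when it kept its direction and its interval still included or still excluded no difference. With the intron density taken within bins of GC content (added after the data were seen), the coding ratio fell from 1.70 to 0.748, and with distance and GC content to 0.672, so its direction depends on this choice. Under the same settings the 5′ untranslated ratio was 1.41 and 1.16, with intervals that include 1. The 3′ untranslated ratio was 1.11 (1.04 to 1.19) with GC content alone and 1.01, with an interval that includes 1, with distance and GC content. The 5′ untranslated ratio was 4.14 with a limit of 500 bp from starts. The number of exonic regions was 524 among regions of at least 200 bp, 1542 with every base in exons, and 3434 when only the first base of each gene counted as a start. The coding share was 45.9% with untranslated sequence first and 45.4% among regions of at least 200 bp. The share of inner exons was 64.3% with a limit of 500 bp from starts and 74.3% with 5000 bp. The difference in width was 0 for medians, and the GC box share was 8.30% in a fixed window of 151 bp. No paired analysis was possible because single libraries have no values in the list. The causes of the other shifts were not tested. Depth and signal are unknown, so weak and strong regions count alike.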
